A study of Mus musculus with 12 samples.

Results

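Tnf, Il1b, Il6 and Ccl2, 3 inflammatory cytokines and a monocyte chemokine, were followed across bone-marrow-derived macrophages with and without the transcription factor Atf3. The members were chosen by transcript ID: ENSMUST00000025263 for Tnf, ENSMUST00000028881 for Il1b, ENSMUST00000026845 for Il6 and ENSMUST00000000193 for Ccl2. All 4 were found among the 74007 probe sets of the deposited table. The gene names came with that choice of IDs, since neither the deposited table nor the gene table used here pairs Ensembl IDs with names.

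Macrophages were grown with recombinant human M-CSF at 50 ng/mL from femoral marrow of 12 female C57BL/6J-background mice, 8 to 12 weeks old and fed normal chow, and 1 array was made per mouse. The groups were Atf3-/- with oxLDL, Atf3-/- unstimulated, wild type (WT) with oxLDL and WT unstimulated, with 3 arrays in each. OxLDL, human low-density lipoprotein oxidised with copper sulphate, was given at 25 ug/mL on day 7, and cells were incubated with it for 24 h. The questions posed by this design are how macrophages respond to lipid loading and how loss of Atf3 changes that response. The labels do not describe the Atf3 allele, and the level of Atf3 and of macrophage markers was not analysed here. In bulk RNA of this kind, fewer cells that express a gene and less RNA per cell cannot be told apart.

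TNF and IL-1β are early inflammatory cytokines that signal to neighbouring cells through their own receptors, and IL-1β is made as a precursor that must be cut before it is active. IL-6 acts through a receptor that shares the gp130 subunit with related cytokines and drives the acute-phase response. CCL2, also called MCP-1, draws monocytes out of the blood through the receptor CCR2 and has a known part in the growth of atherosclerotic lesions in mice. Transcription of these genes in macrophages is classically induced through NF-κB, and in mouse macrophages ATF3 is known as a factor that restrains Toll-like receptor-induced cytokines, Il6 among them.

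In the RefSeq annotation of GRCm38.p6, the symbols lie at chr17:35199367-35202007 for Tnf, chr2:129364569-129371164 for Il1b, chr5:30013114-30019975 for Il6 and chr11:82035577-82037452 for Ccl2. The positions of the array's probes within the genes were not used here. The RefSeq table held a window before a transcript start for Tnf, Il1b and Il6, and the window of Il1b reached 25 bases into its gene record. The 250 bases before the start of Tnf (chr17:35202008-35202257, minus strand) and of Il6 (chr5:30012864-30013113, plus strand) are shown because these genes lay at opposite ends of the array's range, with matches to the searched motifs in capitals.

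Tnf: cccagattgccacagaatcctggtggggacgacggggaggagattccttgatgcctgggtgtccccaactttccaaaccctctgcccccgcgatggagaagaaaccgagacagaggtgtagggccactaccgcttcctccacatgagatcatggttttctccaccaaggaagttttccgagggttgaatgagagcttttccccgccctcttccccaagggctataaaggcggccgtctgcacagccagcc
Il6: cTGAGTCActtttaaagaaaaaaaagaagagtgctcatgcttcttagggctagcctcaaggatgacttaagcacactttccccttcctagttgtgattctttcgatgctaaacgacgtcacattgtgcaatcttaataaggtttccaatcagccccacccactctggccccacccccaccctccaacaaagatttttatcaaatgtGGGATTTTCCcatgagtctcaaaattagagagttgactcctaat

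Both strands were searched for the NF-κB consensus, for the AP-1 motif TGANTCA and for the cyclic AMP response element TGACGTCA, to which ATF/CREB proteins are known to bind. Il6 held an AP-1 match 249 to 243 bases before its start and an NF-κB match 44 to 35 bases before it, and the matches did not overlap. The windows of Tnf and Il1b held no match to these letters, and the full cyclic AMP response element was in none of the 3 windows. Among all 32851 windows of the same length in the table, 7.25% held the NF-κB consensus, 6.75% the AP-1 motif and 1.55% the cyclic AMP response element. A match is a run of letters and was not tested as a binding site.

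There were 2 WT arrays that stood apart, each on a different measure. Over the 39620 probe sets tested, unstimulated WT replicate 1 correlated on average at 0.954 with knockout arrays of the same state, against 0.946 with the remaining arrays of its own group. WT oxLDL replicate 3 correlated on average at 0.922 with its own group and had an interquartile range of 1.51, below the 1.78 to 2.05 of the other arrays. WT arrays were scattered in general: WT oxLDL replicate 2 correlated at 0.941 with its own group, below unstimulated WT replicate 1, and the remaining WT arrays at 0.96. Within the knockout groups these averages were 0.993 to 0.996. Array medians lay between 8.42 and 8.57 on the log2 scale. The labels give no processing day, and day and genotype cannot be told apart if each genotype was processed on its own day.

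Tnf and Ccl2 were bright on every array, while Il1b and Il6 lay near the bottom of the range on every array. Near the bottom means under the 25th percentile of all probe sets of the array, a line that lay between 7.67 and 7.75. Il1b and Il6 were under that line on 12 of 12 arrays, and Tnf and Ccl2 on 0 of 12. A percentile places a probe set on its array and does not rank the amounts of different transcripts, because probe sets differ in how brightly they bind.

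**Figure D1:**
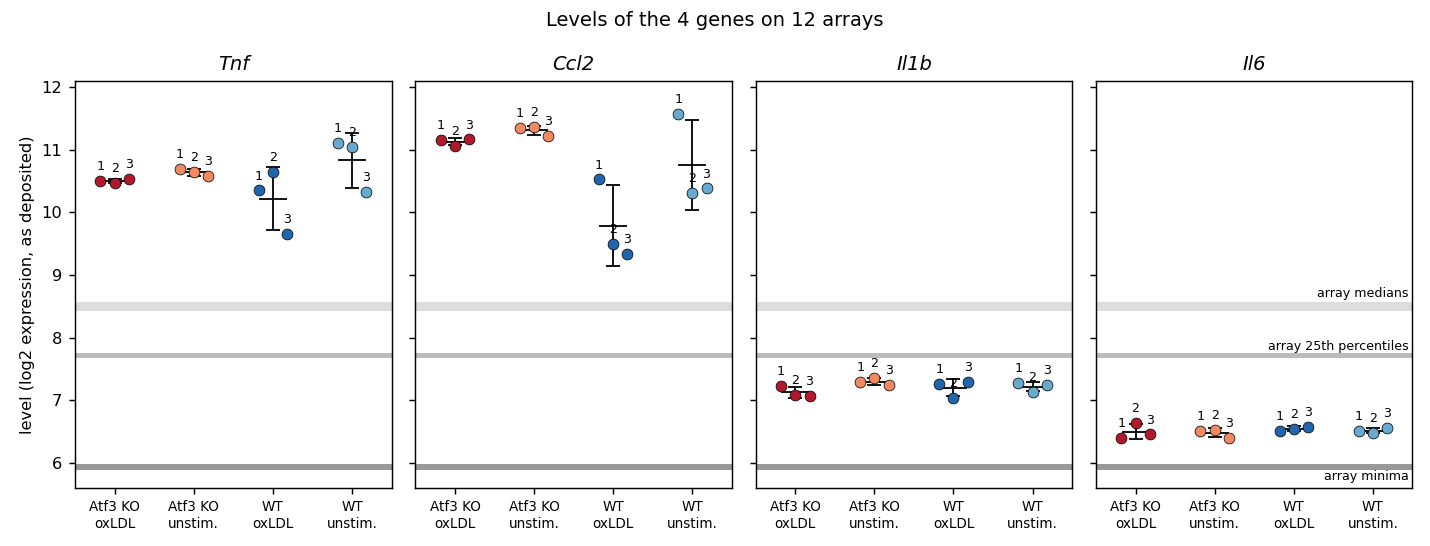
Levels of Tnf, Ccl2, Il1b and Il6 in log2 expression as deposited, with 1 numbered point per array, the group mean and SD as black bars (n = 3), and grey bands for the spread of the array medians, 25th percentiles and minima over the 12 arrays. The 6 knockout points of Ccl2 lie between 11.06 and 11.36, the WT points of Ccl2 run from 9.34 to 11.58, and all points of Il1b and Il6 lie below the band of 25th percentiles.

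Ccl2 was the only member called between the genotypes. With oxLDL it stood at 11.16, 11.06 and 11.17 in knockout macrophages, against 10.53, 9.49 and 9.34 in WT macrophages (log2 level, replicates 1 to 3). All 3 knockout arrays lay above all 3 WT arrays, and the knockout values spanned 0.11 where the WT values spanned 1.19. The share of all probe sets that separate in this way was not counted, here or for the separations given below, so separation is a description only. The group means were 11.13 ± 0.06 in the knockout and 9.79 ± 0.65 in WT (SD, n = 3 each), a 2.54-fold higher level in the knockout with a 95% interval of 1.55 to 4.16. The difference of 1.34 on the log2 scale (SE 0.33) passed the limma test, with a Benjamini-Hochberg adjusted p = 0.00884 over all tested probe sets. That p and the 95% interval assume the same spread in every group, while the SDs here were 0.06 and 0.65. A test that allows unequal spread was not run, so whether the difference would pass one is not known. The same limit applies to the other fits that share a spread between genotypes.

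The call of Ccl2 with oxLDL also has to be read against a comparison in which many transcripts differed. Of the 39620 probe sets tested, 28.8% were called between the genotypes with oxLDL, and of the 2 members that passed the filter on low values, Ccl2 was called and Tnf was not. A difference at least as high as that of Ccl2 was found for 1.94% of the tested probe sets. The 2 WT arrays named above were picked out from these same data. Without them, the difference of Ccl2 was 1.12 (limma adjusted p = 5.12e-04), in a fit that called 56.3% of the probe sets. Under the 21 alternatives run, it ranged from 1.12 to 1.71, with limma adjusted p from 5.12e-04 to 0.0331. Many of these alternatives change no value of the arrays compared and so cannot move the difference. All 21 assume 1 spread for both genotypes.

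Without stimulus, Ccl2 stood at 11.35, 11.36 and 11.23 in knockout macrophages and at 11.58, 10.31 and 10.38 in WT macrophages. The groups overlapped through 1 array: WT replicate 1, the array closer to the knockout arrays than to its own group, had the highest Ccl2 level of the 12, and the other 2 WT arrays lay below every knockout array. The means were 11.31 ± 0.07 in the knockout and 10.76 ± 0.71 in WT (SD, n = 3 each). The difference of 0.56 (95% interval -0.16 to 1.27) did not pass (limma adjusted p = 0.276), where 16.8% of the tested probe sets were called.

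The unstimulated result for Ccl2 turned on that WT array. The array was picked out from these same data and had the highest Ccl2 level. Leaving it out therefore raises the difference by construction, and the fits without it are a description only. Without WT replicate 1 the difference was 0.97 (SE 0.27) and passed, with a limma adjusted p = 0.0245, in a fit that called 22.4% of the probe sets. Leaving out WT oxLDL replicate 3 as well, an array that does not enter this difference but does enter the shared spread, gave a limma adjusted p = 0.00186, with 47.3% called. Leaving out WT replicate 2 or 3 in its place gave 0.33 and 0.37 (limma adjusted p = 0.654 and 0.565).

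**Figure D2:**
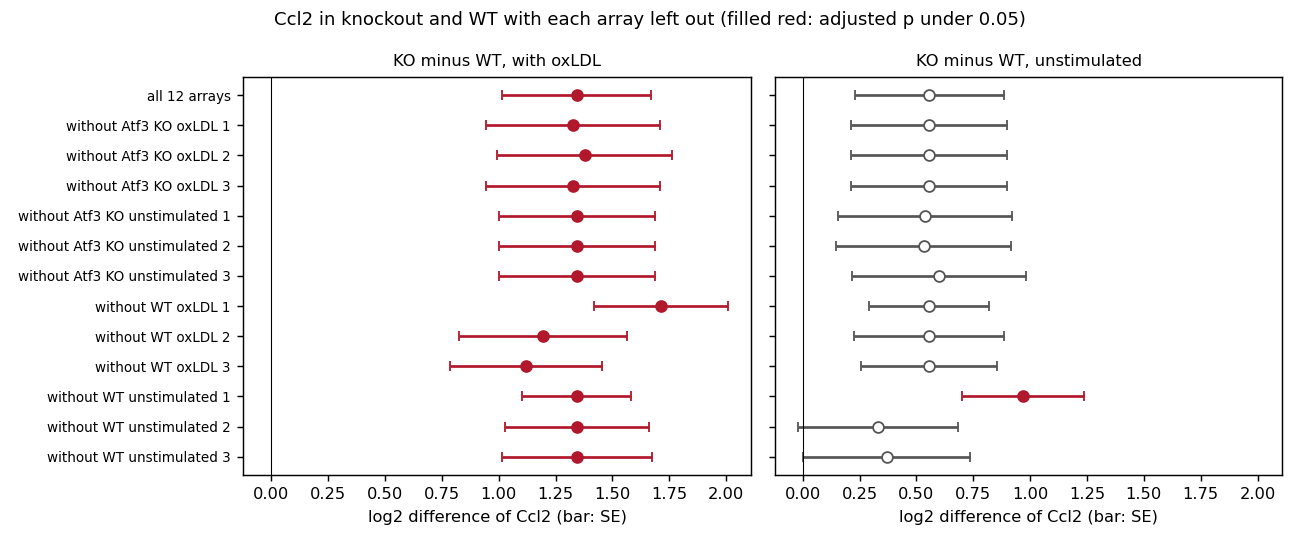
Difference of Ccl2 between knockout and WT in log2 units, with SE, for all 12 arrays and with each array left out in turn, with oxLDL on the left and without stimulus on the right. With oxLDL every point is filled (adjusted p under 0.05) and lies between 1.12 and 1.71, and without stimulus the only filled point is the one without WT unstimulated replicate 1, at 0.97.

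Within each genotype the oxLDL groups had lower mean Ccl2, and neither difference passed. In the knockout the mean was 11.13 ± 0.06 with oxLDL and 11.31 ± 0.07 without, and all 3 oxLDL arrays lay below all 3 unstimulated ones. The difference of -0.18 (95% interval -0.90 to 0.53) had a limma adjusted p = 1.00 when the spread was shared with WT, in a fit that called 1.52% of probe sets. With the 6 knockout arrays alone it passed (limma adjusted p = 0.0285), in a fit that called 25.0%.

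In WT the mean of Ccl2 was 9.79 ± 0.65 with oxLDL and 10.76 ± 0.71 without (SD, n = 3 each), and oxLDL replicate 1, at 10.53, lay above unstimulated replicates 2 and 3. The difference of -0.97 (SE 0.33) had a limma adjusted p = 0.105, where 7.18% of the tested probe sets were called. Without WT oxLDL replicate 1 it was -1.34 and passed (limma adjusted p = 0.0227, 5.34% called). Without unstimulated WT replicate 1 it was -0.56 (limma adjusted p = 0.295), and without both WT arrays that stood apart it was -0.34 (limma adjusted p = 0.313). Replicate 1 was the highest for Ccl2 in both WT states, 0.82 above its group mean unstimulated and 0.74 above it with oxLDL. By the labels these arrays come from separate mice. Each of these fits left out the replicate 1 array of 1 state only, which by itself moves the difference.

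The order of the Ccl2 group means was therefore knockout unstimulated, knockout with oxLDL, WT unstimulated and WT with oxLDL. The difference of the knockout groups did not pass with the spread shared by all arrays. The middle pair differs in genotype and stimulus at once and was not tested, and unstimulated WT replicate 1 lay above all knockout arrays with oxLDL. The WT groups overlapped and did not pass the test. The response to oxLDL in the knockout minus that in WT was 0.79 for Ccl2 (95% interval -0.22 to 1.80, limma adjusted p = 1.00), so a different response was not shown. Leaving out 1 array at a time gave 0.38 (without unstimulated WT replicate 1) to 1.16 (without WT oxLDL replicate 1), and leaving out the 2 WT arrays that stood apart gave 0.15 (limma adjusted p = 0.920).

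Tnf was at a high level in all groups and was not called between them. With oxLDL it stood at 10.51, 10.47 and 10.54 in knockout macrophages, against 10.35, 10.65 and 9.66 in WT macrophages. The WT arrays lay on both sides of the knockout arrays, and the lowest was replicate 3, the array with the narrow range of values. The difference of 0.29 (95% interval -0.23 to 0.80) did not pass (limma adjusted p = 0.392). It was 0.0049 without WT oxLDL replicate 3, 0.50 without replicate 2 (limma adjusted p = 0.129) and 0.35 without replicate 1.

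Without stimulus Tnf stood at 10.70, 10.64 and 10.59 in knockout macrophages, against 11.12, 11.05 and 10.32 in WT macrophages. Again the WT values lay on both sides of the knockout values. The difference of -0.19 (95% interval -0.70 to 0.33) had a limma adjusted p = 0.642. It was -0.04 without WT replicate 1, -0.08 without replicate 2 and -0.44 without replicate 3 (limma adjusted p = 0.229). In fold terms the 95% intervals of the 2 genotype comparisons run from 0.853 to 1.74 with oxLDL and from 0.615 to 1.25 without.

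With oxLDL, mean Tnf was 10.50 ± 0.03 in the knockout, against 10.64 ± 0.05 without it (SD, n = 3 each), and all 3 oxLDL arrays lay below all 3 unstimulated ones. The difference of -0.14 (95% interval -0.65 to 0.37) had a limma adjusted p = 1.00 with all 12 arrays, in a fit that called 1.52% of probe sets. With the 6 knockout arrays alone the limma adjusted p was 0.0494, in a fit that called 25.0%. In WT, mean Tnf was 10.22 ± 0.51 with oxLDL, against 10.83 ± 0.44 without it, and the groups overlapped.

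The WT difference of Tnf, -0.61 (SE 0.24), did not pass in the fit of the deposited values (limma adjusted p = 0.159). It passed after quantile normalization, at -0.55 (limma adjusted p = 0.0401), in a fit that called 17.0% of probe sets. It also passed without unstimulated WT replicate 3, at -0.87 (limma adjusted p = 0.0441, 5.72% called), and without WT oxLDL replicate 2, at -0.83 (limma adjusted p = 0.0476, 9.94% called). Without WT oxLDL replicate 3 it was -0.33 (limma adjusted p = 0.248), and without that array and unstimulated WT replicate 1 it was -0.19 (limma adjusted p = 0.487).

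By group mean, Tnf was highest in WT unstimulated cells, followed by knockout unstimulated, knockout with oxLDL and WT with oxLDL. No neighbouring pair in that order passed the test with all 12 arrays, and WT arrays of both states overlapped the knockout arrays. The knockout response minus the WT response was 0.47 (95% interval -0.25 to 1.20, limma adjusted p = 1.00), in a test that called 0.00252% of the probe sets, a single one. Leaving out 1 array at a time gave 0.19 (without WT oxLDL replicate 3) to 0.73 (without unstimulated WT replicate 3), and leaving out the 2 WT arrays that stood apart gave 0.05.

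**Figure D3:**
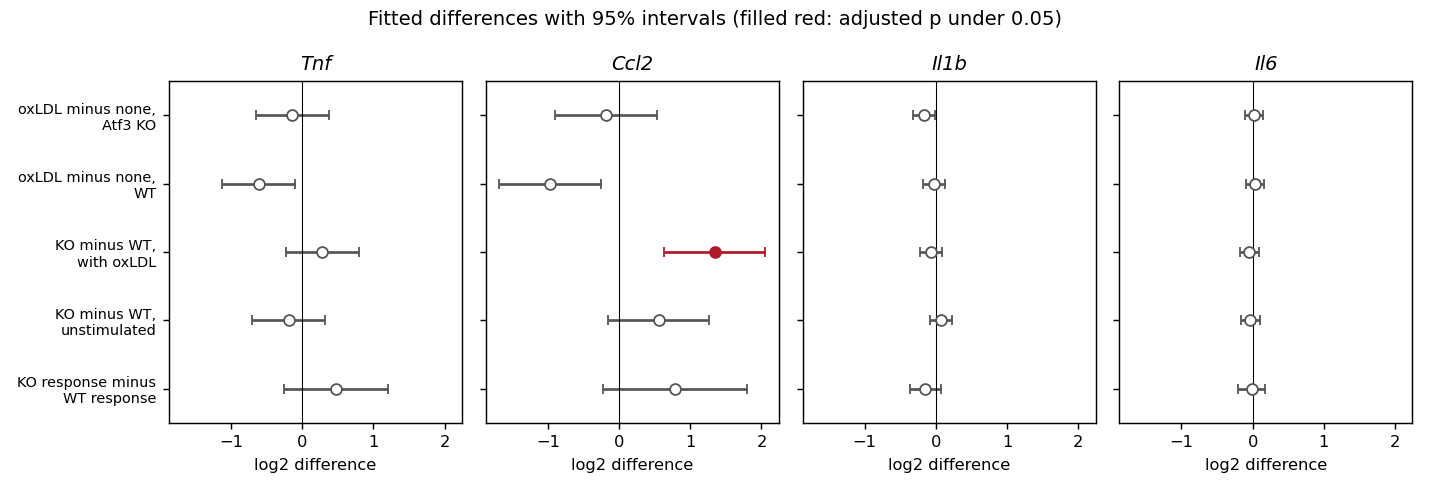
Fitted log2 differences with 95% intervals from limma for the 4 genes in the oxLDL comparisons, the genotype comparisons and the difference of responses, with filled red points for adjusted p under 0.05. The only filled point is Ccl2 in knockout against WT with oxLDL, at 1.34. The intervals of Il1b and Il6, whose signals lie near the bottom of the range, are narrower than those of Tnf and Ccl2. For Il1b with oxLDL in the knockout the interval runs from -0.33 to -0.01.

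Il1b, the gene that encodes the precursor of IL-1β, gave a signal near the bottom of the range in every group. It stood at 7.22, 7.09 and 7.06 in knockout macrophages with oxLDL and at 7.29, 7.35 and 7.24 in unstimulated knockout macrophages. In WT macrophages it stood at 7.26, 7.04 and 7.29 with oxLDL and at 7.27, 7.14 and 7.25 without. These values lay between the 7.42 and 14.5 percentiles of their arrays and 1.09 to 1.39 above the array minimum, and all 12 fell within 0.31 of each other.

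Il6 lay lower still on its arrays. It stood at 6.40, 6.63 and 6.45 in knockout macrophages with oxLDL and at 6.51, 6.53 and 6.40 in unstimulated knockout macrophages. In WT macrophages it stood at 6.50, 6.54 and 6.58 with oxLDL and at 6.50, 6.48 and 6.55 without. The values lay between the 0.622 and 1.83 percentiles, 0.45 to 0.68 above the array minimum, and spanned 0.24 over all 12 arrays.

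Neither gene passed the filter on low values, which asked for a level above the array median on at least 3 arrays, so both were tested in a fit of all 74007 probe sets. In that fit 15.1% were called between genotypes with oxLDL, 7.75% between genotypes without stimulus, 0.619% with oxLDL in the knockout, 3.40% with oxLDL in WT and 0.00135% for the difference of responses. Il1b and Il6 were called in none of the 5 comparisons, and at an unadjusted p under 0.05 only Il1b with oxLDL in the knockout was reached. A probe set this close to the lowest signals of the array can show little of a change in a rare transcript. No difference passed the adjusted test here. How large a change could have been seen was not tested, and absence of these transcripts is not shown.

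The smallest unadjusted p among these belonged to Il1b in the knockout, where all 3 oxLDL arrays lay below all 3 unstimulated arrays. The means were 7.12 ± 0.09 with oxLDL and 7.29 ± 0.06 without (SD, n = 3 each). The difference of -0.17 (95% interval -0.33 to -0.01) had a limma adjusted p = 0.650. The other differences of Il1b between groups ran from -0.07 to 0.08, and those of Il6 from -0.05 to 0.03, on the log2 scale.

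Tnf and Ccl2 shared a feature that group means hide: their WT arrays were scattered and their knockout arrays were not. The SD within groups, pooled over the 2 groups of a genotype, was 0.0671 in the knockout and 0.680 in WT for Ccl2, and 0.0449 in the knockout and 0.476 in WT for Tnf. The knockout value was 0.0986 of the WT value for Ccl2 and 0.0944 of it for Tnf. Over all tested probe sets the median SD was 0.0618 in the knockout and 0.226 in WT, so the tested probe sets as a whole also spread less in the knockout. In WT, 0.681% of tested probe sets had an SD at least as large as that of Ccl2 and 4.40% as large as that of Tnf, and in the knockout these shares were 43.2% and 74.7%. These shares describe the 12 arrays and carry no test.

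The WT scatter of the 2 genes did not follow a single array. In unstimulated WT, replicate 1 was highest for both, but replicate 2 was close to it for Tnf, at 11.05, and was the lowest for Ccl2, at 10.31. With oxLDL, replicate 1 was highest for Ccl2 and replicate 2 for Tnf, and replicate 3 was lowest for both. Il1b had an SD of 0.0730 in the knockout and 0.110 in WT. For Il6 the order was turned, with a knockout SD that was 2.59 of the WT value of 0.0388.

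**Figure D4:**
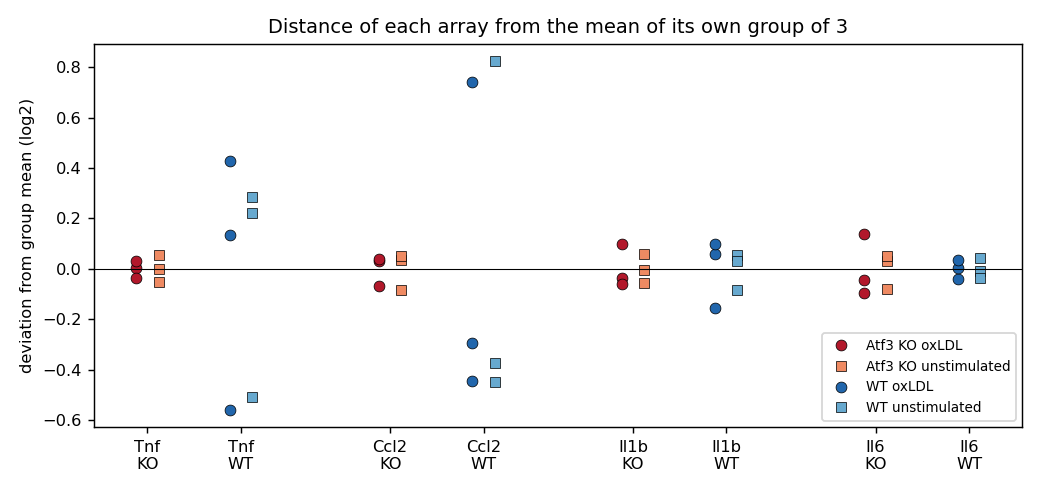
Deviation of each array from the mean of its own group of 3, in log2 units, for each gene with knockout arrays left of WT arrays, circles for oxLDL and squares for unstimulated cells. The knockout points of Tnf and Ccl2 stay close to 0, with SDs of 0.0449 and 0.0671, whereas their WT points spread with SDs of 0.476 and 0.680.

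Other probe sets were compared with each member by their pattern over the 12 arrays. Values of 1 other ID, ENSMUST00000124479, stayed within 0.15 of those of Ccl2 on every array once each was centred on its own mean, and no ID did so for Tnf. That ID is named because it was the only one, after its values were seen. The IDs stand for transcripts, and whether any ID given here shares a gene or probes with a member was not checked. By the rule of highest Pearson correlation, ENSMUST00000152716 was most like Ccl2 (r = 0.98) and ENSMUST00000128136 most like Tnf (r = 0.98), each over 12 arrays. ENSMUST00000152716 averaged 10.13 ± 0.09 in knockout with oxLDL, 10.14 ± 0.03 in knockout unstimulated, 9.37 ± 0.22 in WT with oxLDL and 9.82 ± 0.35 in WT unstimulated cells.

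A correlation above 0.9 with Ccl2 was found for 316 of 39617 probe sets, and with Tnf for 216 of 39618. These counts leave out the IDs that stayed within 0.15 of the member. For Il1b none of the 39449 probe sets left was above 0.9, and for Il6 none of 39105. The highest of those left were ENSMUST00000103405 for Il1b (r = 0.87) and ENSMUST00000119048 for Il6 (r = 0.79). At the same time 2210 IDs stayed within 0.15 of Il1b on every array and 8195 did so for Il6. Of these, 169 for Il1b and 513 for Il6 were tested probe sets, and their correlations were not counted. The 12 arrays share genotype and stimulus groups, so these correlations are a description and carry no test, and the gene names of these IDs were not used here.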

How the data were processed

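RNA of 12 cultures was read on Affymetrix Mouse Exon 1.0 ST arrays. The deposited values are log2 expression per transcript-level probe set, per the labels' design text. The submitters' processing notes name Affymetrix Power Tools and PLIER, with no version. The methods of background correction and scaling between arrays were not given in the sources used here. A different scaling would move the bright genes and compress or widen an array's range, and alternatives therefore include it.

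The labels' genotype and stimulus gave the groups. limma 3.58.1 in R 4.3.3 fitted 4 group means over 12 arrays (eBayes with an intensity trend, 8 residual degrees of freedom), with 5 contrasts and Benjamini-Hochberg adjustment over all probe sets tested. A probe set was called at an adjusted p under 0.05. Tested probe sets lay above the array median on at least 3 arrays (39620, or 53.5%); Il1b and Il6 did not and took their tests from a fit of all 74007. Each adjusted p in the text is limma's. The test was checked on simulated data with the same spread in every group. These arrays spread less in the knockout than in WT, and that check does not cover unequal spread. An exact permutation test of 3 against 3 arrays cannot go below p = 0.1 and was not used. The labels describe separate mice, but shared cultures or days are not given, so the p-values cover only how far these samples differ, which may be technical in part. The number of arrays limits the precision.

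The members and lists were chosen with earlier results of these data known. The rule for named genes was all 4 members and, for each, the tested probe set with the highest Pearson correlation over the 12 arrays, leaving out IDs that follow it within 0.15. The gene table used for names has 49997 entries, 0 with an Ensembl ID, so lists of pathway genes and cell type markers by symbol were not run, and other cell types were not analysed here. Genes and promoter sequences of the members were matched by symbol to RefSeq, GRCm38.p6: 4 of 4 had a gene record. Alternatives were filters, quantile normalization, median centring, eBayes settings, a replicate block, a fit of the compared arrays alone, and leaving out arrays.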

Additional observations from a re-analysis of the deposited data

How the results depend on the processing

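The difference of Ccl2 between knockout and WT with oxLDL passed under all 21 alternatives run, each of which assumes the same spread in both genotypes. Results that did not pass with the deposited values passed under some alternatives: with only the 6 knockout arrays, the oxLDL differences of Tnf (-0.14) and Ccl2 (-0.18); with quantile normalization, Tnf with oxLDL in WT (-0.55); and without the 2 WT arrays that stood apart, Ccl2 between genotypes unstimulated (0.97). Those 2 WT arrays were picked out from these same data, so the fits without them are a description only. Without those arrays the difference of responses of Il6 was 0.0075, against -0.01. With 1 array left out, passing results were Tnf with oxLDL in WT without unstimulated WT replicate 3 or WT oxLDL replicate 2, Ccl2 with oxLDL in WT without WT oxLDL replicate 1, and Ccl2 between genotypes unstimulated without WT replicate 1. These fits ran from -0.87 to -0.33 for Tnf and -1.34 to -0.56 for Ccl2 with oxLDL in WT, 0.33 to 0.97 for Ccl2 between genotypes unstimulated, -0.070 to 0.056 for Il1b with oxLDL in WT, and, for Il6, -0.053 to 0.064 with oxLDL in the knockout, -0.12 to 0.0012 and -0.057 to 0.0085 between genotypes with and without oxLDL, and -0.084 to 0.033 for the difference of responses. Apart from the constructions themselves (fewer arrays, another scaling), the cause was not tested. Il1b and Il6 also failed the filter at the 25th percentile, which therefore gave no value for them.

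With the replicate number as a block, Ccl2 with oxLDL in WT passed (-0.97, limma adjusted p = 0.0391, against 0.105 without the block), and the block changed no other call of the 4 genes. Taken over all groups, same-numbered arrays did not deviate together in general. Deviations correlated above 0.1 in 4 of 18 same-numbered pairs (range -0.31 to 0.51). An array correlated best with its own number in 9 of 36 cases, each with 3 arrays to choose from. Between the WT groups, same-numbered arrays correlated at -0.10, 0.51 and 0.15 (replicates 1 to 3). Ccl2 deviated by 0.82, -0.45 and -0.37 in unstimulated WT and by 0.74, -0.29 and -0.45 in WT with oxLDL. Whether same-numbered WT arrays were handled together was not tested, and the labels describe separate mice.

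Counts over all probe sets moved more. With oxLDL in the knockout the 604 calls became 1843 with quantile normalization, 1199 with median centring, 3580 without the 2 WT arrays, 9896 with 6 arrays and 106 to 2117 with 1 array left out. With oxLDL in WT the 2844 became 6743, 4622, 8362, 277 and 2116 to 7304 in the same order. Between genotypes with oxLDL the 11427 became 17946 with quantile normalization, 22300 without the 2 WT arrays, 7477 with 6 arrays and 7235 to 19771 with 1 left out. Between genotypes unstimulated the 6640 became 12241, 18734 and, with 1 left out, 2797 to 13531. The 1 call for the difference of responses became 16 with quantile normalization, 5 with median centring, 109 without the 2 WT arrays and 1 to 17 with 1 left out.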
